A study of Homo sapiens with 24 samples.

Results

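The tight junction genes of HCT116 human colon cancer cells were followed across 8 culture conditions. They were chosen by name, as the claudins CLDN1, CLDN2, CLDN3, CLDN4, CLDN7 and CLDN12, the membrane protein OCLN and the scaffolds TJP1 and TJP3. These are 9 of the 18239 genes measured, and each was read at the brightest of its probe sets over all arrays.

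The arrays came from parental HCT116 cells and from HCT116 cells that overexpress ESR2, the gene of estrogen receptor β. The ESR2 cells carry a HaloTag fusion of the full-length receptor from the lentiviral vector pWPI-IRES-GFP-PGK-Puro, were selected with puromycin and were used as a transduced population in which most cells were GFP-positive. Parental and ESR2 cells were each cultured in normoxia or in hypoxia, produced by flushing the incubator with nitrogen and carbon dioxide, and each without treatment or with 10 nM estradiol. This gives 8 groups of 3 arrays. Cells given estradiol grew in DMEM free of phenol red with charcoal-stripped serum. The sources used here name neither an empty-vector control nor the medium of untreated cells, nor how long hypoxia lasted, so a response to estradiol and one to its medium, and a response to ESR2 and one to transduction and selection, cannot be told apart.

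Tight junctions seal the space between neighbouring epithelial cells. Claudins form the paired strands of the junction and set which ions and solutes pass between cells, occludin is a further strand protein, and the zonula occludens scaffolds TJP1 and TJP3 tie the strands to the actin cytoskeleton. In the colon a barrier of mainly sealing claudins faces the lumen, and CLDN2, which forms a channel for cations and water, is known for its rise in inflamed mucosa. Hypoxia-inducible factors have been described as regulators of several junction genes in intestinal epithelium, and the SNAI and ZEB factors as their repressors.

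All values are log2 signals after robust multi-array averaging (RMA). ESR2 itself read between 3.43 and 3.48 as a group mean in parental cells. In ESR2 cells it read 4.51 ± 0.44 (SD, n = 3) in normoxia, 4.41 ± 0.07 in normoxia with estradiol, 4.07 ± 0.11 in hypoxia and 3.93 ± 0.02 in hypoxia with estradiol. Of 10 colon epithelial markers, EPCAM, KRT8, KRT18 and KRT19 were above the upper quartile of every array, while VIL1 and LGALS4 were below the median of every array. None of the markers of fibroblasts (0 of 10), leukocytes (0 of 9), endothelium (0 of 6) or embryonic kidney lines (0 of 7) was above the upper quartile of every array. The difference between 3′ and 5′ signals of control transcripts was averaged over actin and the bacterial controls dap and thr. It is a measure of target length, and only in actin one of the cells' own RNA. It was 3.63 ± 0.28 in hypoxic ESR2 cells with estradiol and 2.06 ± 0.14 in hypoxic ESR2 cells without it. It averaged 2.37 to 2.64 in 5 of the other 6 groups and 3.07 ± 0.89 in untreated normoxic parental cells, where replicate 2 read 4.09 against 2.60 and 2.50. In hypoxic ESR2 cells, dap alone gave 2.85, 3.07 and 2.83 with estradiol and 1.30, 1.21 and 1.52 without it. GAPDH, which is not part of the measure, gave -0.01, 0.07 and 0.07 with estradiol and -0.22, -0.18 and -0.12 without it.

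**Figure D1:**
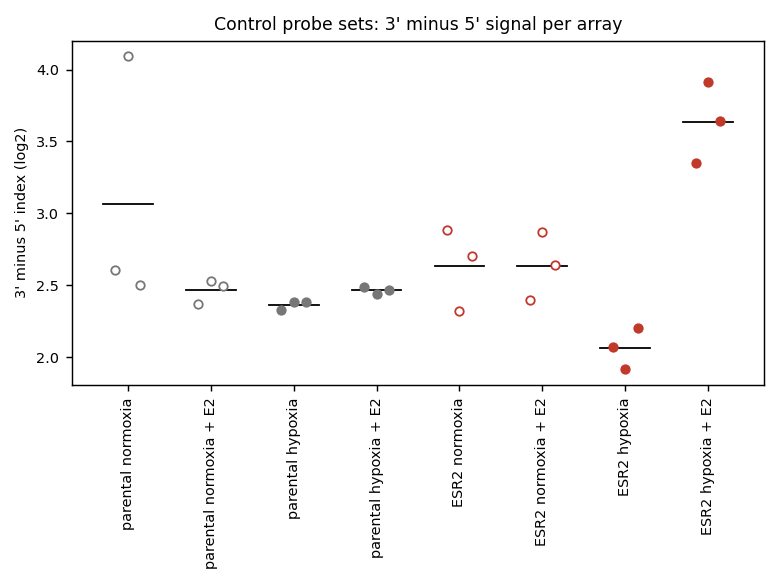
The excess of 3′ over 5′ signal in control transcripts (log2, vertical axis) is plotted for every array in the 8 groups, with parental cells in grey, ESR2 cells in red, hypoxia filled and the line at the mean of 3 arrays. Hypoxic ESR2 cells with estradiol lie between 3.35 and 3.91 and those without it between 1.92 and 2.20, and 1 untreated normoxic parental array stands at 4.09.

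The 250 bases upstream of the outermost annotated start are shown for 5 members chosen for their differences with oxygen or between the cell types. Hypoxia-inducible, SNAI or ZEB factors and the estrogen receptor could meet the gene there or elsewhere. Sites further away were not searched. TJP1 has 4 annotated promoter windows and CLDN7 and OCLN have 2 each, of which only the outermost was searched. The sequences are those of RefSeq on GRCh38.p14, and all 9 members were matched. They are printed 5′ to 3′ in the direction of the gene, in lower case. Capitals mark, on either strand, the E-box CACCTG, the hypoxia-inducible factor cores ACGTG and GCGTG, and the estrogen receptor half-site AGGTCA. The first 3 lie upstream of CLDN4 (chr7:73830746-73830995, plus strand), CLDN3 (chr7:73770271-73770520, minus strand) and CLDN7 (chr17:7263214-7263463, minus strand), and the others upstream of OCLN (chr5:69492297-69492546, plus strand) and TJP1 (chr15:29969050-29969299, minus strand).
CLDN4: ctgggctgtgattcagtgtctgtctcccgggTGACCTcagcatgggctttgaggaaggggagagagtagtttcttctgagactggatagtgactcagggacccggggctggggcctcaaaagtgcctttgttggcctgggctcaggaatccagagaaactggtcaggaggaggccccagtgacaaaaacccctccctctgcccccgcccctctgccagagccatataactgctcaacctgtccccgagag
CLDN3: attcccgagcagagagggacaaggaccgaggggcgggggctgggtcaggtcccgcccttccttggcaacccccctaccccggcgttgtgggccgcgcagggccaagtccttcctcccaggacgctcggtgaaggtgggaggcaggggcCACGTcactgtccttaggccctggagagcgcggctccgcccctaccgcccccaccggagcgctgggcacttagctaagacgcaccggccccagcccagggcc
CLDN7: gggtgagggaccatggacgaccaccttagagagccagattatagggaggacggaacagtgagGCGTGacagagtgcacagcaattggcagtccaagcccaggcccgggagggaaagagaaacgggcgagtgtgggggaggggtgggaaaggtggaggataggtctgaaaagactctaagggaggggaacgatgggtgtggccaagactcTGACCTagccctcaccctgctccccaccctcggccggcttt
OCLN: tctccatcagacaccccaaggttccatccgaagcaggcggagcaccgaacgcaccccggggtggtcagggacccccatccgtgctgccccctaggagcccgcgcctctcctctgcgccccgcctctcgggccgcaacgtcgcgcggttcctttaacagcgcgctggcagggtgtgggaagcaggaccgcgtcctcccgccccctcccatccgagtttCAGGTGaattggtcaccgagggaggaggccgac
TJP1: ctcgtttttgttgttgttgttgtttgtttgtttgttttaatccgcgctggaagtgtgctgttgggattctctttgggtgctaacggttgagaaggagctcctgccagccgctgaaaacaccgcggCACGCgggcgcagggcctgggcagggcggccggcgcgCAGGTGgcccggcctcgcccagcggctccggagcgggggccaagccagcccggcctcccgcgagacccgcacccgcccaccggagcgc

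The CLDN4 stretch held no E-box and neither hypoxia core, and 1 half-site at 219 bases before the start. CLDN3 held ACGTG at 102 bases, CLDN7 held GCGTG at 188 and a half-site at 41, OCLN held an E-box at 33, and TJP1 held an E-box at 88 and GCGTG at 125. The full palindromic estrogen response element, which can overlap a half-site, was in none of these stretches of the 9 members. Over 35116 windows of the same length, CACCTG occurred in 17.5%, ACGTG in 18.5%, GCGTG in 32.2%, AGGTCA in 12.1% and the full response element in 0.0399%, so apart from the last these short motifs are common. CLDN3 and CLDN4 are neighbours on chromosome 7, 60.7 kb apart, with 0 annotated genes between them.

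Hypoxia raised most of the well-measured strand proteins and did so in both cell types, CLDN4 and OCLN the most. The scaffold TJP1 fell in parental cells at its brightest probe set. There its response differed between the cell types without estradiol. With estradiol that difference did not pass the test (0.24, adjusted p = 0.0516). Estradiol was followed by differences in hypoxic ESR2 cells, where OCLN was higher and CLDN4 and TJP1 lower, and by none past the threshold in the other 3 settings. In hypoxic ESR2 cells the members' share called for estradiol was close to that of all genes. OCLN alone kept its call there with the 3′ to 5′ measure as a covariate, while CLDN4 kept its value but missed the threshold. That measure did not overlap between hypoxic ESR2 cells with and without estradiol, so the covariate fit cannot tell it from estradiol. CLDN1, CLDN2 and TJP3 read below the median of every one of the 24 arrays, so that differences in them concern a low signal.

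Counts of members are read against the share of all genes that passed the same test (limma, Benjamini-Hochberg adjusted p under 0.05). The members and the other lists were chosen with earlier results of these data known, so their counts are a description and no test of the list. With hypoxia 5 members rose and 1 fell in parental cells (37.5% of all genes called, 16.4% higher and 21.2% lower), and 4 rose and 0 fell in ESR2 cells (32.6%, 14.4% higher and 18.2% lower). With estradiol present in both oxygen states, 5 rose and 1 fell in parental cells (34.8%, 16.1% higher and 18.7% lower) and 5 rose and 0 fell in ESR2 cells (52.3%, 29.6% higher and 22.6% lower). In ESR2 cells with estradiol the members' share called was close to that of all genes. The 5 include CLDN1, at a low signal. Without estradiol, the median log2 difference of the 9 members was 0.42 in parental and 0.19 in ESR2 cells, beside 0.00 and -0.06 for all genes. In bulk RNA, a change in how many cells express a gene and one in RNA per cell cannot be told apart.

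ESR2 cells differed from parental cells in 1 member in normoxia (18.6% of all genes called) and 0 in normoxia with estradiol (13.7%; 2 members had an unadjusted p under 0.05). In hypoxia 2 members were higher and 2 lower in ESR2 cells (40.4%, 20.4% higher and 20.0% lower), and in hypoxia with estradiol 4 were higher and 2 lower (47.7%, 27.8% higher and 19.8% lower). The hypoxia response itself differed between the cell types for 2 members without estradiol (30.7%) and for 3 with it (38.6%). In normoxia, in hypoxia without estradiol and for the difference of responses, the members' share was close to or below that of all genes.

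**Figure D2:**
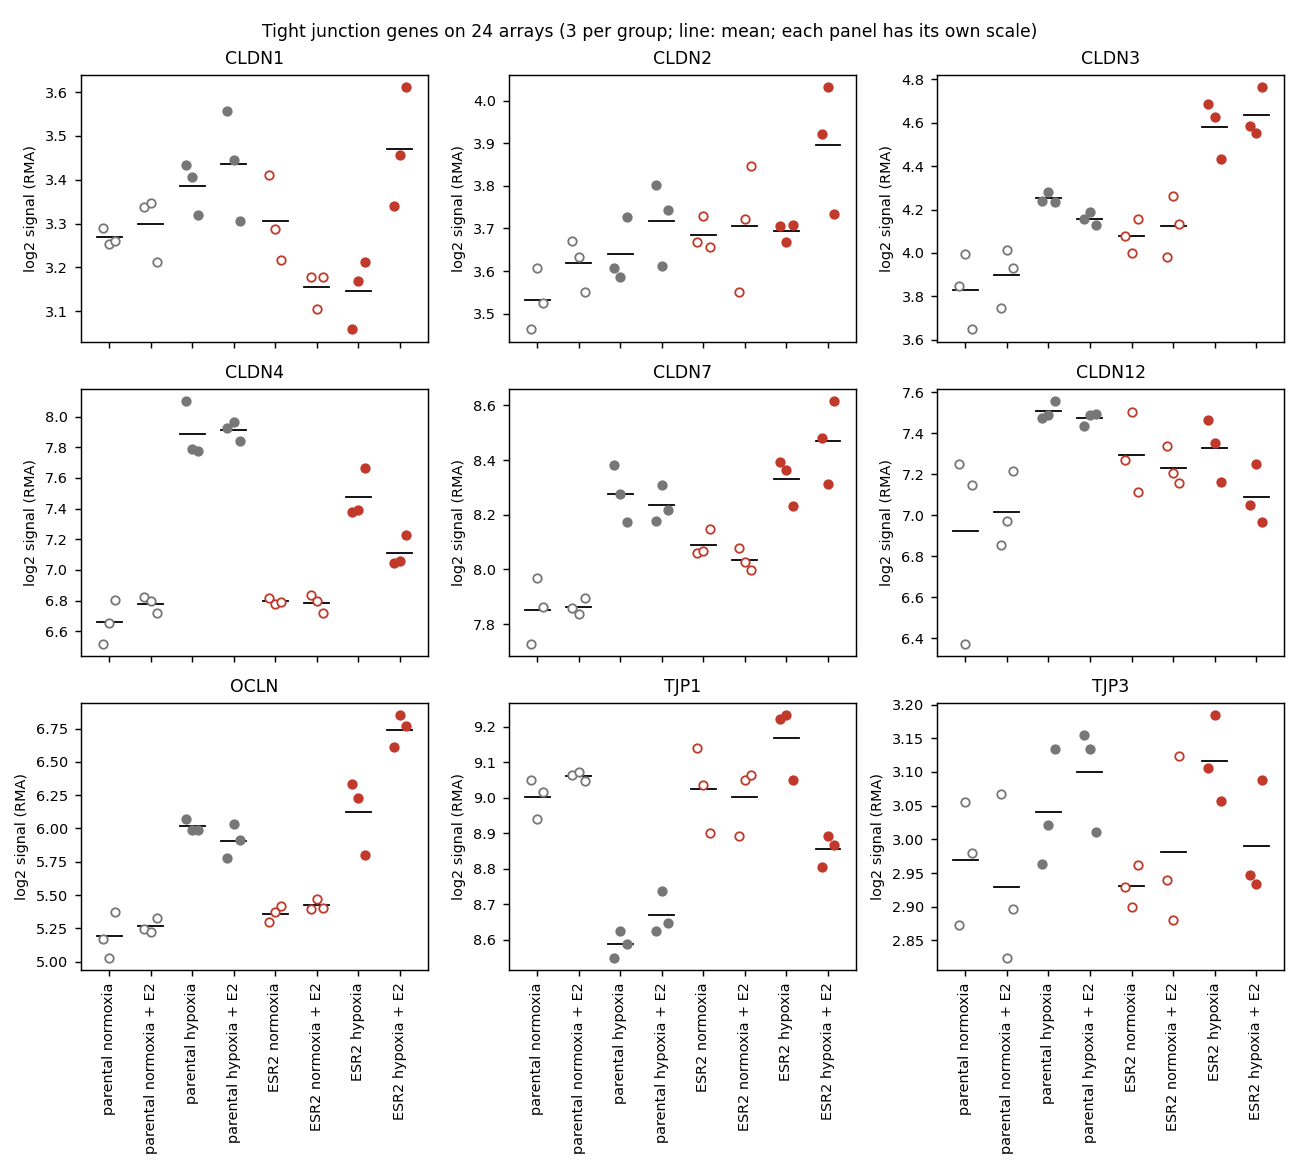
The log2 signal of each gene (vertical axis, own scale per panel) is plotted for the 24 arrays in 8 groups, with parental cells in grey, ESR2 cells in red, hypoxia filled and the line at the mean of 3 arrays. CLDN4 and OCLN are higher in every hypoxic group than in any normoxic one, and TJP1 is lowest in the hypoxic parental groups.

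CLDN4, a sealing claudin, read 6.52, 6.65 and 6.80 in normoxic parental cells and 8.10, 7.79 and 7.77 in hypoxic ones. The groups did not overlap. The difference was 1.23 on the log2 scale (SE 0.09, a fold of 2.34; adjusted p = 9.38e-11). In ESR2 cells CLDN4 read 6.82, 6.78 and 6.79 in normoxia and 7.38, 7.39 and 7.66 in hypoxia, again without overlap. That rise was 0.68 (SE 0.09; adjusted p = 2.84e-06), smaller than the parental one by 0.55 on the log2 scale (interaction -0.55, SE 0.13; adjusted p = 0.00195). The 2 normoxic cell types differed by 0.14 (95% interval -0.05 to 0.32; adjusted p = 0.338), and in hypoxia ESR2 cells were lower by 0.41 (adjusted p = 0.00077).

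With estradiol, CLDN4 read 7.93, 7.97 and 7.84 in hypoxic parental cells and 7.04, 7.06 and 7.23 in hypoxic ESR2 cells. The ESR2 arrays were all below those of hypoxic ESR2 cells without estradiol. The difference with estradiol in hypoxic ESR2 cells was -0.37 (SE 0.09; adjusted p = 0.00156), against 0.02 (95% interval -0.16 to 0.21; adjusted p = 1) in hypoxic parental cells. In order of mean level, both hypoxic parental groups (7.91 and 7.89) came first and overlapped each other. Hypoxic ESR2 cells (7.48) and hypoxic ESR2 cells with estradiol (7.11) followed, each apart from its neighbours, and the 4 normoxic groups (6.66 to 6.80) overlapped as a chain.

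CLDN3, also a sealing claudin and the genomic neighbour of CLDN4, rose with hypoxia from a lower signal. It read 3.85, 3.99 and 3.65 in normoxic and 4.24, 4.28 and 4.24 in hypoxic parental cells. In ESR2 cells it read 4.08, 4.001 and 4.15 in normoxia and 4.68, 4.63 and 4.43 in hypoxia. No hypoxic array overlapped its normoxic group in either cell type. The rises were 0.42 (SE 0.09; adjusted p = 0.000609) and 0.50 (SE 0.09; adjusted p = 0.000154), and their difference of 0.08 did not pass the test (95% interval -0.19 to 0.35; adjusted p = 0.682). Hypoxic ESR2 cells read 0.33 above hypoxic parental cells for CLDN3 (adjusted p = 0.00604), where they read 0.41 below them for CLDN4. In parental cells with estradiol the rise was 0.26 (adjusted p = 0.031), and it missed the threshold without replicate 1 or 3 of the normoxic or any 1 of the hypoxic estradiol arrays (adjusted p from 0.0501 to 0.192).

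CLDN7, a claudin of the lateral membrane that binds EPCAM, was measured at a high signal. It read 7.73, 7.97 and 7.86 in normoxic and 8.38, 8.27 and 8.17 in hypoxic parental cells. In ESR2 cells it read 8.06, 8.07 and 8.15 in normoxia and 8.39, 8.36 and 8.23 in hypoxia. The hypoxic arrays were higher in both cell types, with no overlap, by 0.42 (SE 0.08; adjusted p = 8.54e-05) and 0.24 (SE 0.08; adjusted p = 0.0207). The rise in ESR2 cells missed the threshold without replicate 1 or 2 of either ESR2 group (adjusted p from 0.0607 to 0.0902). CLDN7 was the 1 member higher in normoxic ESR2 than in normoxic parental cells, by 0.24 (adjusted p = 0.0342). That call was lost without replicate 1 or 3 of parental cells or any 1 ESR2 array (adjusted p from 0.0611 to 0.145), with only these 2 groups fitted (0.143) and with arrays centred on their medians (0.0551).

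CLDN12, a claudin without the usual scaffold-binding end, read 7.25, 6.37 and 7.15 in normoxic and 7.48, 7.49 and 7.56 in hypoxic parental cells. The low normoxic array is the one that stood apart in the 3′ to 5′ measure. The difference was 0.59 (SE 0.15; adjusted p = 0.00335), and 0.31 (adjusted p = 0.0315) without that array, normoxic replicate 2. With all arrays it missed the threshold with that measure as a covariate (0.28, adjusted p = 0.0968) and with only the 2 groups fitted (adjusted p = 0.0707). In ESR2 cells CLDN12 read 7.27, 7.50 and 7.11 in normoxia and 7.47, 7.35 and 7.16 in hypoxia. These overlapped, with a difference of 0.03 (95% interval -0.29 to 0.35; adjusted p = 0.896). The interaction of -0.55 did not pass the test (adjusted p = 0.057). In parental cells with estradiol the rise was 0.46 (adjusted p = 0.0215), lost without replicate 1 or 2 of the normoxic or replicate 2 or 3 of the hypoxic arrays (adjusted p from 0.0559 to 0.107). A second CLDN12 probe set gave 0.23 (adjusted p = 0.194) for hypoxia in parental cells.

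CLDN1, a sealing claudin, and CLDN2, the cation and water channel, gave low signals throughout. Group means of CLDN1 ran from 3.15 to 3.47 and those of CLDN2 from 3.53 to 3.90. Without estradiol, neither passed the test for hypoxia in parental or in ESR2 cells, with differences of 0.12 and -0.16 for CLDN1 and of 0.11 and 0.01 for CLDN2. With estradiol, CLDN1 rose with hypoxia in ESR2 cells by 0.32 (adjusted p = 0.00126). Its other probe sets there read 2.53, 2.97 and 3.20 in normoxia and 2.53, 3.03 and 3.24 in hypoxia. CLDN1 read 3.06, 3.17 and 3.21 in hypoxic ESR2 cells and 3.34, 3.46 and 3.61 with estradiol added, without overlap. This was a difference of 0.32 (SE 0.08; adjusted p = 0.00102). It was seen at 1 of 4 CLDN1 probe sets, the others giving 0.04, 0.09 and 0.07 with adjusted p over all probe sets of 0.748, 0.363 and 0.444. CLDN1 was also lower in hypoxic ESR2 than in hypoxic parental cells, by 0.24 (adjusted p = 0.0142), a call lost without replicate 1 of hypoxic parental cells (0.0554) or replicate 1 of hypoxic ESR2 cells (0.0778). CLDN2 read 3.71, 3.67 and 3.71 in hypoxic ESR2 cells and 3.92, 4.03 and 3.73 with estradiol. The difference of 0.20 (adjusted p = 0.0356) was lost without any 1 of the 3 untreated arrays or without replicate 1 or 2 of the treated ones (adjusted p from 0.0533 to 0.191). It was 0.13 without treated replicate 2 (adjusted p = 0.191), and a second probe set gave -0.01.

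OCLN, the strand protein occludin, had the widest range of group means, 1.55, beside a median of 0.47 over all genes and a 90th percentile of 1.38. It read 5.17, 5.03 and 5.37 in normoxic and 6.07, 5.99 and 5.99 in hypoxic parental cells. In ESR2 cells it read 5.29, 5.37 and 5.42 in normoxia and 6.34, 6.23 and 5.80 in hypoxia. Every hypoxic array was above every normoxic one. The rises were 0.83 (SE 0.11, a fold of 1.77; adjusted p = 6.96e-07) and 0.76 (SE 0.11; adjusted p = 5.34e-06), and their difference of -0.07 did not pass the test (95% interval -0.38 to 0.24; adjusted p = 0.783).

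With estradiol, OCLN read 5.78, 6.03 and 5.92 in hypoxic parental cells and 6.61, 6.85 and 6.77 in hypoxic ESR2 cells. The latter were above every other array of the study. In hypoxic ESR2 cells the difference with estradiol was 0.62 (SE 0.11; adjusted p = 3.43e-05), and in hypoxic parental cells -0.11 (95% interval -0.33 to 0.11; adjusted p = 1). With estradiol present, hypoxia raised OCLN by 0.64 in parental and by 1.32 in ESR2 cells, and the responses differed by 0.68 (SE 0.15; adjusted p = 0.000825). In normoxia the estradiol differences of 0.08 in parental and 0.06 in ESR2 cells did not pass the test.

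TJP1, the main zonula occludens scaffold, ran the other way in parental cells. It read 9.05, 8.94 and 9.02 in normoxia and 8.55, 8.62 and 8.59 in hypoxia, without overlap. It fell by 0.41 on the log2 scale (SE 0.07; adjusted p = 2.54e-05). In ESR2 cells it read 9.14, 9.04 and 8.90 in normoxia and 9.22, 9.23 and 9.05 in hypoxia, which overlapped, with a difference of 0.14 (95% interval 0.00 to 0.29; adjusted p = 0.12). The responses differed by 0.56 (SE 0.10; adjusted p = 0.000101), and hypoxic ESR2 cells read 0.58 above hypoxic parental cells (adjusted p = 3.05e-07). With estradiol, hypoxic ESR2 cells read 8.81, 8.89 and 8.87, all below those without it, a difference of -0.31 (adjusted p = 0.00056). The hypoxic fall in parental cells with estradiol was 0.39 on the log2 scale, from 9.06, 9.07 and 9.05 to 8.62, 8.74 and 8.65.

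In hypoxia with estradiol, ESR2 cells read above parental cells for OCLN by 0.83, CLDN3 by 0.48, CLDN7 by 0.23 and TJP1 by 0.19, and below them for CLDN4 (-0.80) and CLDN12 (-0.38). OCLN and CLDN4 kept the call in each alternative run for them. CLDN3, CLDN7, TJP1 and CLDN12 all lost it with the 3′ to 5′ covariate, CLDN3 at 0.28 (adjusted p = 0.0614). CLDN7 also lost it without replicate 1 of the parental (adjusted p = 0.0646) or 3 of the ESR2 arrays (0.114), and its adjusted p reached 0.199 over all alternatives. TJP1 lost it without replicate 1 or 3 of the parental or 2 or 3 of the ESR2 arrays (0.0683 to 0.102), and CLDN12 lost it without any 1 of the parental or replicate 1 or 3 of the ESR2 arrays (0.0693 to 0.14). The second TJP1 probe set gave -0.54 for this comparison, opposite to the brightest.

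TJP3, a scaffold found mainly in epithelia, had a signal of 2.93 to 3.12 as a group mean and passed the test in none of the comparisons. Its differences with hypoxia were 0.07 (95% interval -0.09 to 0.23) in parental and 0.19 (0.02 to 0.35; adjusted p = 0.0722) in ESR2 cells.

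**Figure D3:**
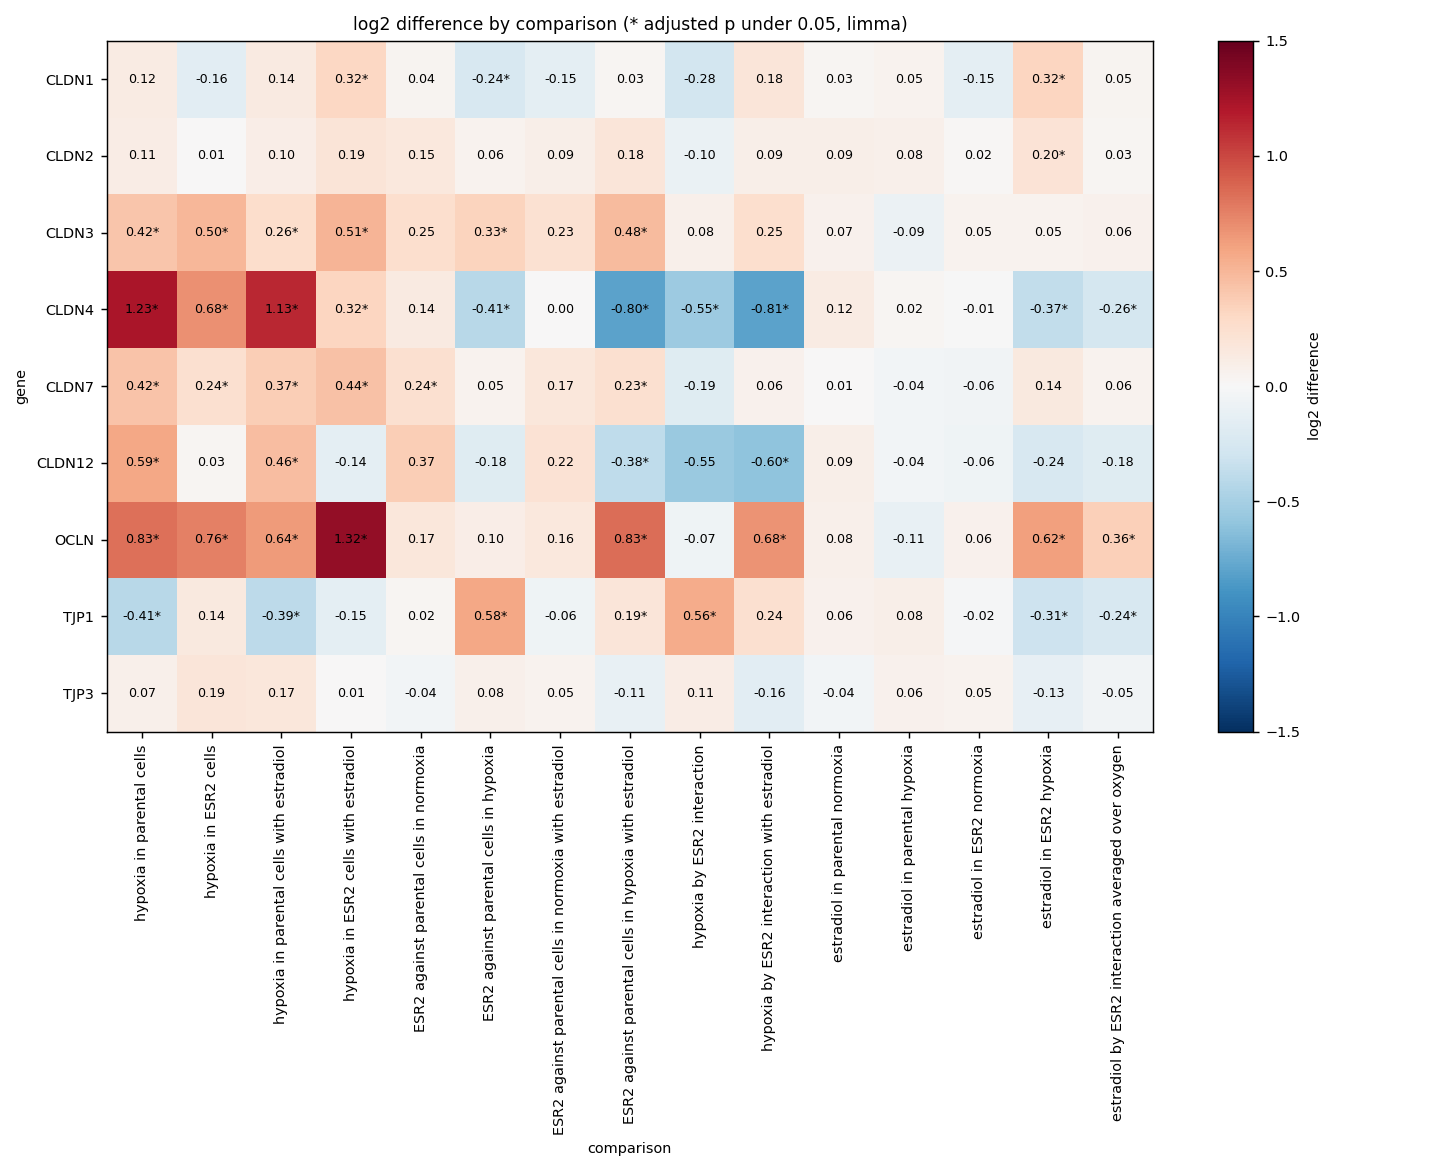
Each cell gives the log2 difference of 1 gene (rows) in 1 comparison (columns), with red higher, blue lower and a star where the adjusted p was under 0.05. CLDN4, CLDN3, CLDN7 and OCLN are starred in all 4 hypoxia columns, and no gene is starred for estradiol in parental cells or in normoxic ESR2 cells.

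Estradiol gave 0 member calls in parental normoxia, parental hypoxia and ESR2 normoxia, and 0 of the 9 had an unadjusted p under 0.05 in each. Over all genes the limma calls were 2, 3 and 0 (0.011%, 0.0164% and 0%), with 2524, 846 and 981 genes at an unadjusted p under 0.05. In ESR2 hypoxia 3 members were higher and 2 lower, and 57% of all genes were called, 35.4% higher and 21.6% lower, so the members' share called was close to that of all genes. In that comparison the median of all genes moved by 0.12, so that OCLN stood 0.62, and CLDN4 -0.37, against a general shift of 0.12. Averaged over oxygen, the estradiol response differed between cell types for 3 members, CLDN4, OCLN and TJP1 (24.5% of all genes). In comparisons chosen after the data were seen, it differed between oxygen states for 4 members in ESR2 cells (43.8%) and 0 in parental cells (0.00548%; 0 members and 921 genes at an unadjusted p under 0.05), and between the cell types in hypoxia for 4 (42%). Where 4 members differed, their share was close to that of all genes.

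Hypoxic ESR2 cells with estradiol were also the group with the highest 3′ to 5′ difference of the control transcripts, as given above. It did not overlap between hypoxic ESR2 cells with estradiol (3.35 to 3.91) and without it (1.92 to 2.20). A covariate fit therefore cannot tell that measure from estradiol. With the measure as a covariate, OCLN was the 1 member still called for estradiol in ESR2 hypoxia. CLDN4 kept a value of -0.37 (adjusted p = 0.0613), TJP1 -0.28 (adjusted p = 0.0593) and CLDN1 0.31 (adjusted p = 0.0651), and CLDN2 was at 0.07 (adjusted p = 0.697). A further quantile normalization left CLDN4 at -0.23 (adjusted p = 0.0591). Averages of the leukocyte markers (4.35 to 4.38) and fibroblast markers (3.40 to 3.46) were also highest in this group, beside 3.73 to 4.02 and 3.14 to 3.25 in all others. Only 3 of 9 leukocyte markers (PTPRC, CD14 and ITGAM) and 8 of 10 fibroblast markers stayed below the median of every array. The average of the 10 colon epithelial markers, CDH1 among them, was also highest here (7.31 to 7.37, beside at most 7.22 elsewhere), and it was higher in hypoxic than in normoxic parental cells (7.08 to 7.11 against 6.62 to 6.73) and ESR2 cells (7.18 to 7.22 against 6.84 to 6.87). The part of these differences in the results was not tested.

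**Figure D4:**
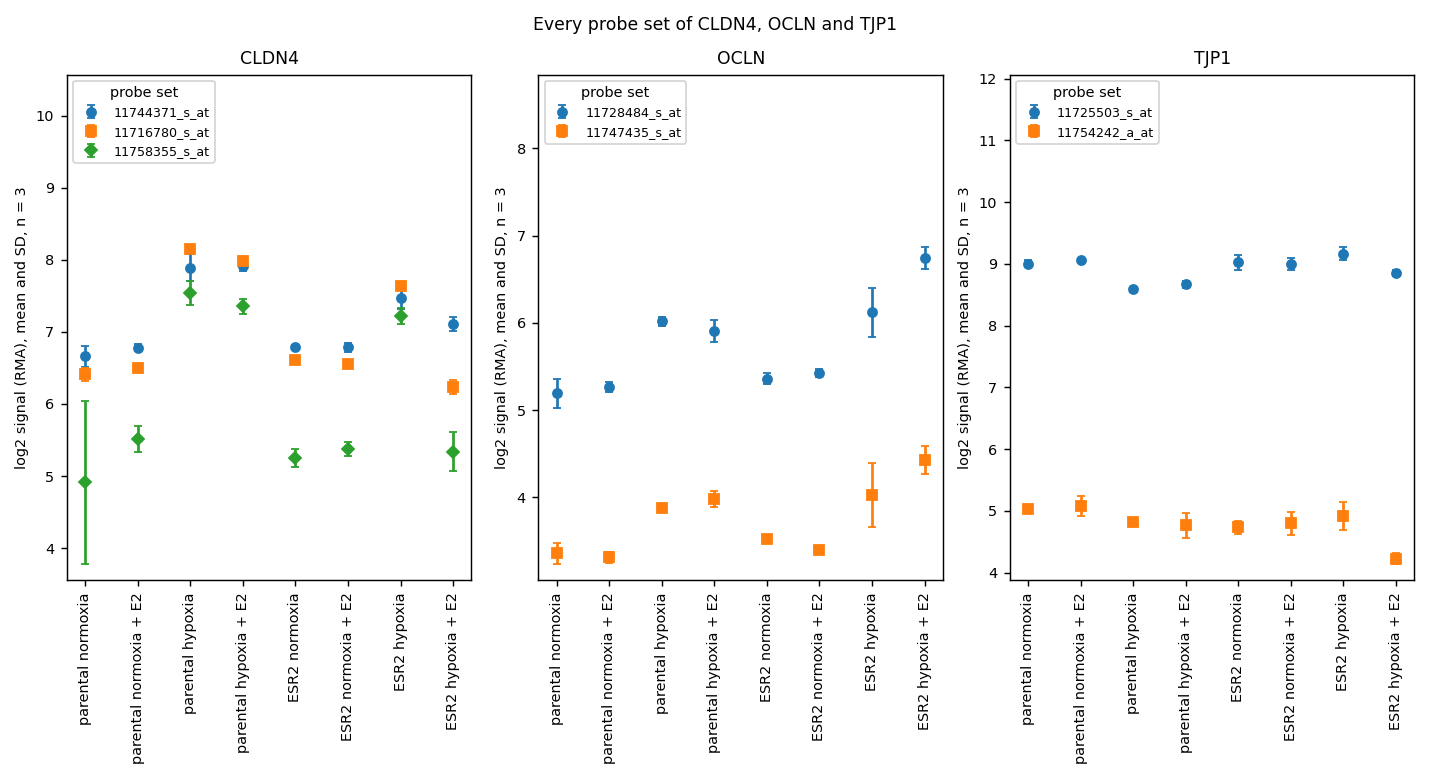
Means and SD of 3 arrays are plotted on the log2 scale for every probe set of CLDN4, OCLN and TJP1 in the 8 groups. The 3 CLDN4 probe sets are all higher in hypoxia except in ESR2 cells with estradiol, where 2 of them lie near or below the normoxic level.

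Probe sets of a gene read different stretches of its transcripts. All 3 CLDN4 probe sets rose with hypoxia in parental cells, by 1.23, 1.74 and 2.62, and in ESR2 cells, by 0.68, 1.02 and 1.97. The parental rise of 2.62 rests partly on normoxic replicate 2, which read 3.61 at that probe set beside 5.49 and 5.63. That array also stood apart in the 3′ to 5′ measure. All 3 CLDN4 probe sets were lower with estradiol in hypoxic ESR2 cells, with differences of -0.37, -1.41 and -1.88. They disagreed on hypoxia in ESR2 cells with estradiol, where the brightest rose by 0.32 (adjusted p = 0.00436), another fell by 0.32 on the log2 scale (adjusted p = 0.000122 over all probe sets) and the last gave -0.04. Both OCLN probe sets rose with hypoxia in parental cells, by 0.83 and 0.52, in ESR2 cells, by 0.76 and 0.50, and with estradiol in hypoxic ESR2 cells, by 0.62 and 0.40. The second TJP1 probe set gave -0.22 for hypoxia in parental cells (adjusted p = 0.167), so the call without estradiol rests on the brightest one. This second probe set read 5.07, 4.98 and 5.05 in normoxia and 4.84, 4.81 and 4.80 in hypoxia, lower without overlap but not called. In parental cells with estradiol both were called lower in hypoxia, the second reading 5.08 in normoxia and 4.76 in hypoxia. In ESR2 cells with estradiol the second alone was called lower in hypoxia, at 4.23 against 4.80. This second probe set gave -0.69 for estradiol in hypoxic ESR2 cells, where both were called. For ESR2 against parental cells in hypoxia it gave 0.10 (adjusted p = 0.537) where the brightest gave 0.58, and 0.40 (adjusted p = 0.0765) for the difference of hypoxia responses, neither called. For the difference of hypoxia responses with estradiol, the second OCLN probe set gave 0.36 (adjusted p = 0.112) against 0.68, and the second CLDN12 probe set 0.39 (adjusted p = 0.101) against -0.60, the opposite sign. That CLDN12 probe set was called higher in hypoxic ESR2 cells with estradiol (4.30) than in hypoxic ones without it (3.94) and normoxic ones with it (3.89). The brightest was called in neither comparison.

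Across the 8 group means, CLDN7 followed OCLN (Pearson r = 0.95) and CLDN3 (0.94), and CLDN3 followed OCLN (0.92). CLDN4 followed CLDN12 (0.83) and the other scaffold TJP3 (0.83, at a low signal) and ran against TJP1 (-0.70). CLDN1, also at a low signal, ran against TJP1 as well (-0.75). These describe 8 points that share arrays and normalization. Among 3845 genes whose group means span at least 1, those most like CLDN4 were ARRDC3 (0.996), an arrestin-domain protein, GBE1 (0.994), the glycogen branching enzyme, and PLCB4 (0.992), a phospholipase. Those most like OCLN were FAM220A (0.996), CYBRD1 (0.994), an iron reductase, and PIK3C3 (0.993), a lipid kinase of vesicle traffic.

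Of 16 other claudins measured, CLDN23 fell with hypoxia in parental cells, by 0.70 on the log2 scale (adjusted p = 6.76e-06), 15 were not called, and in ESR2 cells 0 of 16 were called, beside 37.5% and 32.6% of all genes. CLDN19 read 4.52 to 4.88 as a group mean, and no other claudin of this list read above 4.19. Array medians ran from 4.07 to 4.13, so the lack of calls concerns mostly low signals. Among 10 other tight junction membrane proteins, 2 rose and 2 fell in parental cells (40% called, close to the 37.5% of all genes). CXADR, an adhesion protein and virus receptor, rose by 0.70 and ILDR1, of the tricellular junction, by 0.56. Tricellulin, MARVELD2, fell by 0.83 on the log2 scale and its relative MARVELD3 by 0.65. In ESR2 cells JAM3 alone was called (0.24 from a low signal of 3.61, adjusted p = 0.0128). The responses of the 4 genes called in parental cells differed between the cell types by 0.70 for MARVELD2, 0.95 for MARVELD3, -0.67 for CXADR and -0.46 for ILDR1 (adjusted p from 0.000106 to 0.0123).

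Of 20 other scaffold, polarity and plaque genes, 9 rose and 3 fell with hypoxia in parental cells (60% called, beside 37.5% of all genes) and 7 rose and 2 fell in ESR2 cells (45%, beside 32.6%). AMOT, the scaffold angiomotin, rose by 1.30 and 0.99, and PATJ, of the Crumbs polarity complex, by 0.94 and 0.90. With estradiol in hypoxic ESR2 cells 5 were higher and 12 lower (85%, beside 57%). The lower ones included the polarity proteins PARD3 (-1.77) and PRKCZ (-1.11) and the angiomotin relative AMOTL1 (-1.36).

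Of 14 factors known to act on claudin genes, 3 rose and 3 fell with hypoxia in parental cells (42.9% called, close to the 37.5% of all genes), and 5 rose and 2 fell in ESR2 cells (50%, beside 32.6%). The epithelial factors KLF4 and ELF3 rose in both, by 1.46 and 1.40 in parental and by 1.28 and 1.27 in ESR2 cells. GRHL1, an epithelial factor of the grainyhead family, fell by 1.43 on the log2 scale in parental cells (adjusted p = 6.3e-09), from 6.27 to 4.84. In ESR2 cells it read 6.36 in normoxia and 5.998 in hypoxia as group means, and the responses differed by 1.07 (adjusted p = 0.000134). The repressor SNAI1 fell by 0.57 on the log2 scale in parental cells, and SNAI2 rose by 1.38 in ESR2 cells, a response that differed from the parental one by 0.92 (adjusted p = 1.16e-06). Of the 5 adherens junction genes 4 rose in parental and 5 in ESR2 cells, where 16.4% and 14.4% of all genes rose. CDH1, the adherens junction cadherin, rose by 2.04 and 1.34, and its interaction of -0.70 (adjusted p = 0.00395) had the sign of that of CLDN4. For hypoxia in parental cells the median log2 difference was 0.02 for the other claudins, 0.03 for the other membrane proteins, 0.12 for the scaffold list, 0.09 for the factors and 0.71 for the adherens junction genes, beside 0.00 for all genes.

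**Figure D5:**
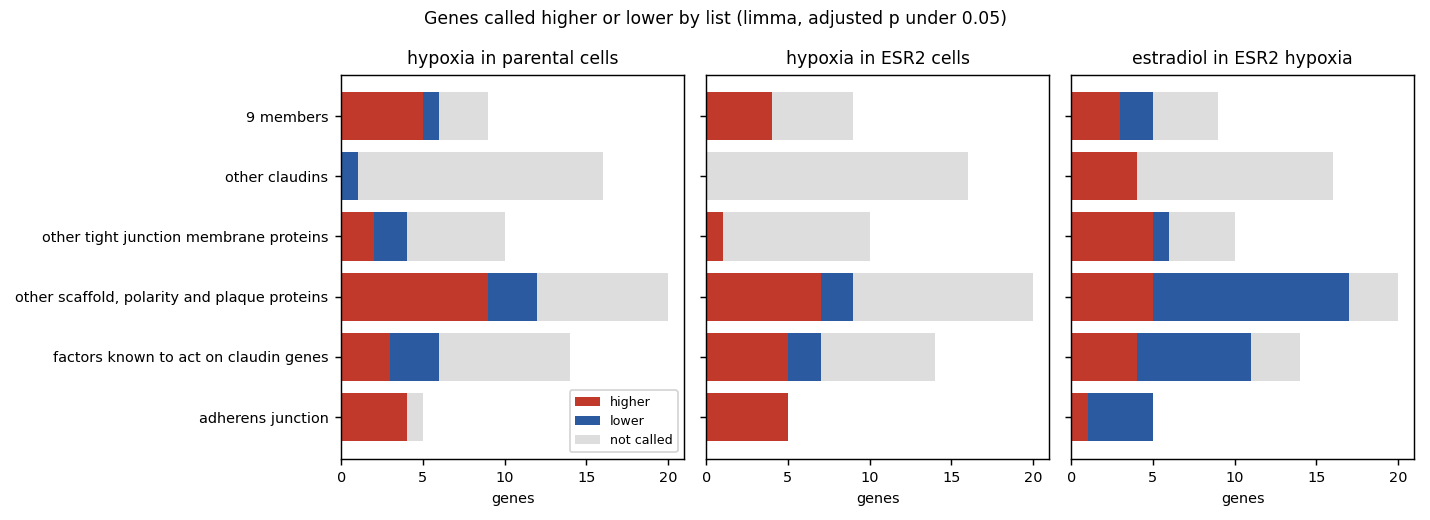
Bars count the genes of each list (horizontal axis) that were higher (red), lower (blue) or not called (grey) in 3 comparisons. With hypoxia in parental cells 5 of 9 members and 9 of 20 other scaffold, polarity and plaque genes were higher, and 0 of 16 other claudins. Signals of the other claudins were mostly low.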

How the data were processed

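HCT116 RNA was hybridised to 24 Affymetrix expression arrays, 3 in each of 8 groups. The deposited values are log2 signals per probe set, normalized by the authors with RMA, in the affy package, per the submitters' processing notes; their versions are not stated there. Of 49293 probe sets that are not controls, 45253 had 1 gene symbol in the platform annotation, and these were reduced to the brightest probe set of each of 18239 genes. A linear model with the 8 groups was fitted with limma 3.58.1 (R 4.3.3; lmFit, eBayes, 16 residual degrees of freedom), and p-values were adjusted by Benjamini-Hochberg over all genes of each of 15 planned comparisons and 3 added after the data were seen, with a threshold of 0.05. The fit was tested on simulated data. Each array held the same probe sets, and with 3 arrays a group their number limits the precision. Nothing in the sources used here says that the 3 arrays of a group came from separate cultures, so p-values measure the spread between these arrays, which may be technical. Named genes are the 9 members, up to 4 genes with the smallest p of each list in a comparison, and, for members spanning at least 1, the 3 most correlated genes. The members and lists were chosen with earlier results of these data known. Motifs were searched on both strands of RefSeq promoter windows. Alternatives covered normalization, centring, filters, probe sets, variance model, weights, the groups fitted, the replicate block, the 3′ to 5′ measure and leaving out arrays.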

Additional observations from a re-analysis of the deposited data

Results flagged for a closer look

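The hypoxia response of a member differed between parental and ESR2 cells, by limma's interaction term, in 5 cases. Without estradiol the response of CLDN4 was lower in ESR2 cells, with an interaction of -0.55 (SE 0.13; adjusted p = 0.00195), and that of TJP1 higher, with 0.56 (SE 0.10; adjusted p = 0.000101). With estradiol the interactions were -0.81 for CLDN4 (adjusted p = 1.78e-05), -0.60 for CLDN12 (adjusted p = 0.0308) and 0.68 for OCLN (adjusted p = 0.000825). Second probe sets gave 0.39 for CLDN12 (adjusted p = 0.101), opposite in sign, 0.36 for OCLN (adjusted p = 0.112) and, without estradiol, 0.40 for TJP1 (adjusted p = 0.0765), none of them called. The CLDN12 value missed the threshold without any 1 of 7 of the 12 arrays (adjusted p from 0.0537 to 0.0849): replicate 1 or 2 of normoxic and 2 or 3 of hypoxic parental cells, replicate 1 of normoxic and 1 or 3 of hypoxic ESR2 cells, all with estradiol.

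The estradiol response, averaged over oxygen, differed between ESR2 and parental cells by -0.26 for CLDN4 (adjusted p = 0.0369), 0.36 for OCLN (adjusted p = 0.0158) and -0.24 for TJP1 (adjusted p = 0.0132). The CLDN4 value missed the threshold when any 1 of 13 of the 24 arrays was left out (adjusted p from 0.0503 to 0.0743): in parental cells replicate 1 of untreated normoxia, 1 or 2 of normoxia with estradiol, 2 or 3 of untreated hypoxia and 1 or 2 of hypoxia with estradiol, and in ESR2 cells replicate 1 of untreated normoxia, 2 or 3 of normoxia with estradiol, 3 of untreated hypoxia and 1 or 2 of hypoxia with estradiol.

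In comparisons added after the data were seen, the estradiol response of ESR2 cells differed between hypoxia and normoxia by 0.47 for CLDN1 (adjusted p = 0.00118), -0.36 for CLDN4 (adjusted p = 0.0282), 0.56 for OCLN (adjusted p = 0.00471) and -0.29 for TJP1 (adjusted p = 0.0199). In hypoxia it differed between ESR2 and parental cells by 0.28 for CLDN1 (adjusted p = 0.0436), -0.39 for CLDN4 (adjusted p = 0.0173), 0.73 for OCLN (adjusted p = 0.000463; second probe set 0.30, adjusted p = 0.167) and -0.40 for TJP1 (adjusted p = 0.00242). Between oxygen states, the CLDN4 call was lost without replicate 1 or 2 of normoxic ESR2 cells with estradiol, 3 of hypoxic ESR2 cells or 1 or 2 of hypoxic ESR2 cells with estradiol (0.0504 to 0.0846). The TJP1 call was lost without replicate 3 of either normoxic ESR2 group or 1 or 2 of untreated hypoxic ESR2 cells (0.0507 to 0.068). Between cell types, the CLDN4 call was lost without replicate 3 of untreated hypoxic parental cells (0.0533) or of untreated hypoxic ESR2 cells (0.0538), and the CLDN1 call without replicate 1 or 2 of untreated hypoxic and 2 or 3 of estradiol-treated hypoxic parental cells, or the same numbers in the ESR2 groups (0.057 to 0.134). Each of these 8 values uses the hypoxic ESR2 arrays with estradiol, the group with the highest 3′ to 5′ measure among the 8; its part in them was not tested beyond the covariate fit.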

How the results depend on the processing

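Over 162 member results and their alternatives, 3132 values were computed, of which 2950 stayed on their side of the threshold, 124 lost the call and 55 gained one. Among the 2950, 129 uncalled values changed sign. The remaining 3 of the 3132 values were calls that turned sign. CLDN4 for hypoxia in ESR2 cells with estradiol turned with its 3 probe sets averaged (value -0.011, adjusted p = 0.949). For ESR2 against parental cells in hypoxia with estradiol, TJP1 was -0.18 with its probe sets averaged (adjusted p = 0.0607). In the same comparison CLDN12 was 0.13 with the 3′ to 5′ covariate (adjusted p = 0.578). For ESR2 against parental cells in normoxia the count of members called, 1, became 0 with arrays centred on their medians or only the groups compared, and 2 without the dimmest genes, with array weights, with the covariate or without the arrays that stand apart. Array weights gave 2 in place of 0 for the same comparison with estradiol and 1 in place of 0 for estradiol in parental normoxia. For estradiol in ESR2 hypoxia 5 became 3 without the dimmest genes and 1 with the covariate. The covariate also gave 2 in place of 6 for ESR2 against parental cells in hypoxia with estradiol, 1 in place of 3 for the interaction averaged over oxygen, and 2 in place of 4 in both added interactions of estradiol in hypoxic ESR2 cells.

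Leaving out 1 array gave 0 to 2 members for ESR2 against parental cells in normoxia, 3 to 5 in hypoxia with estradiol (3 without replicate 1 of the parental arrays) and 2 to 4 for the interaction of hypoxia and ESR2 (4 without replicate 3 of untreated normoxic ESR2 cells). In the first of these, 2 were called without replicate 2 of untreated parental cells and 0 without any 1 of the ESR2 arrays. Over all genes, calls for ESR2 against parental cells in normoxia were 3396, and 5187 with array weights and 1061 with only the groups compared. With estradiol they were 2494, and 4437 and 3772. For estradiol in parental normoxia 2 calls became 604 with array weights and 643 without replicate 1 of untreated normoxic parental cells, for estradiol in parental hypoxia 3 became 59 with array weights, and for estradiol in ESR2 hypoxia 10394 became 6545 with the covariate. Replicate numbers are not said to pair the samples, and 7 of 36 same-numbered pairs had a correlation of deviations over 0.1. The same number gave the highest correlation in 13 of 36, among them all 3 pairs of untreated normoxic and hypoxic ESR2 cells. With 3 arrays a group, these correlations cannot decide whether samples were paired. With the replicate block, CLDN12 for ESR2 against parental cells in hypoxia with estradiol was -0.38 (adjusted p = 0.0538) and CLDN1 in the added interaction of estradiol and ESR2 in hypoxia 0.28 (0.0544), both no longer called; no other member call changed.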
